A study of Mus musculus with 4 samples.

Results

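Xdh, the mouse gene of xanthine dehydrogenase (Entrez gene 22436), carried 70 PTBP1 clusters in each of 2 heart lysates, out of 376266 clusters in replicate 1 and 388894 in replicate 2. A cluster is a short stretch of RNA over which crosslinked reads pile up. The gene spans 66.5 kb of chromosome 17 (GRCm38, the mm10 assembly), chr17:73883895-73950397, and lies on the − strand. Its clusters were all those on that strand whose midpoint fell inside the span, and 0 clusters of the opposite strand lay there in either replicate. The gene was selected on the log2 folds of its clusters in these same tables, where its strongest site was among the highest, so its folds are given as a description and no test of them was made.

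Xanthine dehydrogenase, which can be converted to xanthine oxidase, carries out the last steps of purine breakdown, from hypoxanthine to xanthine and from xanthine to urate. It needs a molybdenum cofactor, and its oxidase form passes electrons to oxygen, giving superoxide and hydrogen peroxide. In heart, the enzyme is known from the endothelium of capillaries. PTBP1, polypyrimidine tract binding protein 1, binds pyrimidine-rich RNA, much of it in introns, and is best known for repressing exons next to its binding sites.

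The assay was enhanced crosslinking and immunoprecipitation (eCLIP) on whole heart of wild-type C57BL/6 mice, with 2 PTBP1 immunoprecipitates and 2 size-matched inputs. Per the labels, about 66 mg of frozen tissue per lysate was powdered and crosslinked with ultraviolet light at 254 nm and 400 mJ per square cm. RNA equal to 50 µg was trimmed with RNase I, and 2% of each lysate was set aside as its own input before the antibody step. Both kinds of library were cut from the membrane between 50 and 125 kDa. No group carried a treatment or a mutation, and the labels give neither age nor sex. They also do not say whether the lysates were made from different animals, so differences between the replicates may be technical.

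Xdh carried enriched PTBP1 clusters in both lysates. Each log2 fold and −log10 p below is the authors' own value for that cluster, as found in the authors' deposited tables, and sets the immunoprecipitate against the input of its lysate. A cluster was called enriched when both values were at least 3. In replicate 1, 28 of the 70 clusters (40%) were enriched, where 6.31% of all clusters were. In replicate 2 it was 22 of 70 (31.4%), where 4.71% of all clusters were. Because the gene was chosen by these folds, nothing is read from the distance between those shares.

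In replicate 1 the log2 folds of the Xdh clusters, by which the gene was chosen, ran from −1.55 to 6.62 with a median of 2.96, and the quartiles were 1.76 and 3.85. In replicate 2 the folds ran from −1.42 to 6.66 with a median of 2.47 and quartiles of 1.45 and 3.46. The median over all clusters was 0.62 in both replicates. A log2 fold of at least 1 was found for 62 Xdh clusters in replicate 1 and 60 in replicate 2, which is 88.6% and 85.7% of them. Over all clusters that share was 41.5% and 38.8%. Only 3 Xdh clusters per replicate had a fold below 0.

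**Figure D1:**
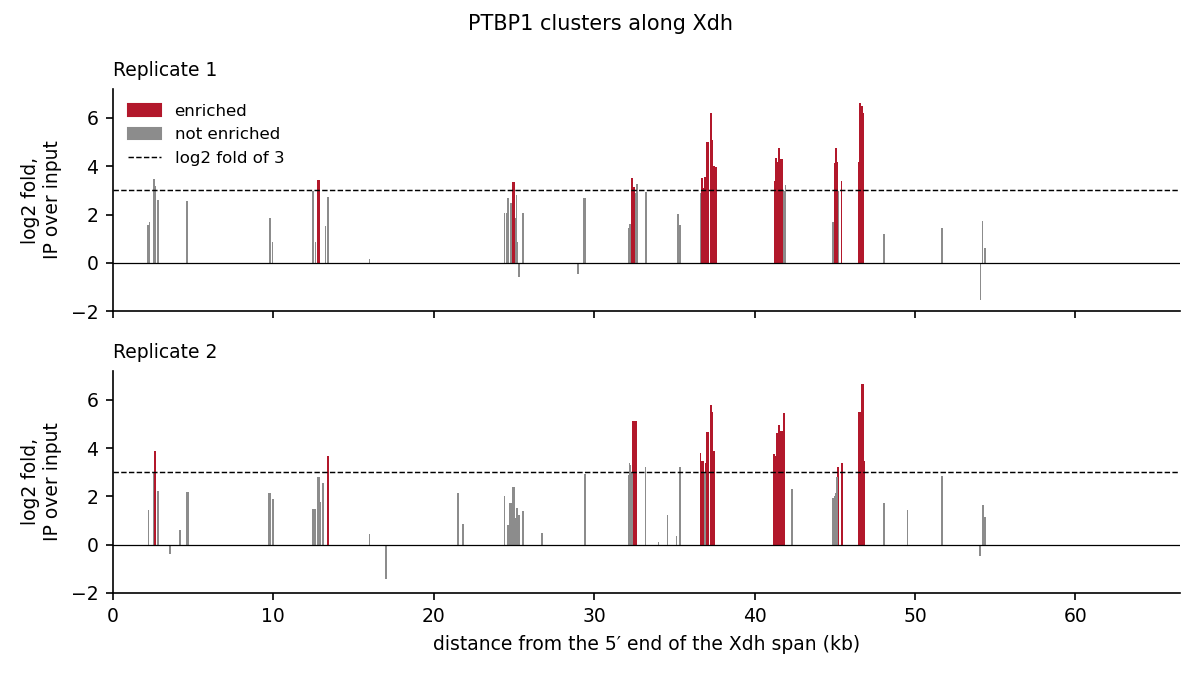
PTBP1 clusters along Xdh in replicate 1 (top) and replicate 2 (bottom). The x axis is the distance from the 5′ end of the gene span in kb, bars reach from 0 to the log2 fold of immunoprecipitate over input (clusters are drawn at least 0.1 kb wide), red bars are enriched clusters and the dashed line marks a log2 fold of 3. The tallest bars of both replicates stand between 36.6 and 46.8 kb, and no cluster lies in the last 12125 nt.

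Binding was concentrated in 1 stretch of the 3′ part of the gene. Clusters of both replicates were joined into blocks wherever they lay within 500 nt of each other, which gave 21 blocks along the span. Of the blocks, 4 neighbouring ones, from 36.6 to 46.8 kb downstream of the 5′ end (chr17:73903558-73913819), made up 15.4% of the span. This stretch, singled out after its values were seen, held 24 of the 28 enriched clusters of replicate 1 (85.7%) and 19 of the 22 of replicate 2 (86.4%). Its median log2 fold was 4.15 over 29 clusters in replicate 1 and 3.68 over 25 in replicate 2. The rest of the gene had medians of 2.06 over 41 clusters and 1.72 over 45. Those medians outside the stretch were still above the 0.62 of all clusters.

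The strongest site was the most 3′ block of the stretch, 364 nt long at chr17:73903558-73903921 and 46.5 to 46.8 kb from the 5′ end. In replicate 1 it was split into 4 touching clusters, which read from 5′ to 3′ had log2 folds of 4.19, 6.62, 6.49 and 6.21. In replicate 2 it was split into 3 touching clusters with log2 folds of 5.50, 6.66 and 3.45. All 7 were enriched. The peak cluster of replicate 1, chr17:73903736-73903861, had a −log10 p of 71.4, and that of replicate 2, chr17:73903603-73903736, had 74.0.

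The peak clusters of the replicates in this block were neighbours that shared 1 nt. Paired instead by the most shared nucleotides, the replicate 2 peak cluster matched 2 clusters of replicate 1, sharing 71 nt with one at a log2 fold of 6.21 and 62 nt with another at 6.49. The replicate 1 peak cluster of 6.62 then matched a replicate 2 cluster of 5.50, with 125 nt shared. Over the nucleotides covered in both replicates, the mean log2 fold of the block was 6.08 in replicate 1 and 5.84 in replicate 2, the highest of all blocks in both. The exact place of the summit within these 364 nt was therefore not resolved between the lysates.

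The block with most enriched clusters over both replicates combined, 1068 nt long at chr17:73912752-73913819, lay 36.6 to 37.6 kb from the 5′ end. Of its clusters, 9 of 10 were enriched in replicate 1 and 7 of 8 in replicate 2. Its summit was at nearly the same place in both lysates: chr17:73913084-73913184 with a log2 fold of 6.19 in replicate 1, and chr17:73913091-73913169 with 5.78 in replicate 2, sharing 79 nt. A second high cluster lay 5′ of it, across a short gap without clusters in either replicate, with 5.01 at chr17:73913262-73913407 in replicate 1 and 4.64 at chr17:73913263-73913407 in replicate 2. The starts of that pair differed by 1 nt and the ends were the same. Averaged over nucleotides covered in both replicates, the block had mean log2 folds of 4.19 and 4.16.

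Between 41.2 and 42.4 kb from the 5′ end lay a block of 1187 nt, chr17:73908045-73909231, with 6 of 8 enriched clusters in replicate 1 and 7 of 8 in replicate 2. Its core was a run of touching clusters in both lysates. The broadest pair, chr17:73908612-73908787 and chr17:73908614-73908785, shared 172 nt and had log2 folds of 4.31 and 4.71. The pair beside it shared 166 nt, with 4.77 and 4.95. Toward its 3′ end the replicates parted: a cluster with a log2 fold of 2.98 in replicate 1, just under the threshold, overlapped one of 5.46 in replicate 2.

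The remaining block of the stretch, 600 nt at chr17:73904924-73905523 and 44.9 to 45.5 kb from the 5′ end, differed most between the replicates within the stretch, with replicate 1 higher. It had 5 enriched clusters of 7 in replicate 1 and 2 of 6 in replicate 2, with highest log2 folds of 4.76 and 3.39. Over nucleotides covered in both, the mean was 3.82 against 2.76, a difference of 1.06. A single pair in this block was nearly identical, 60 nt shared with log2 folds of 3.40 and 3.39 and a −log10 p of 5.69 in both.

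**Figure D2:**
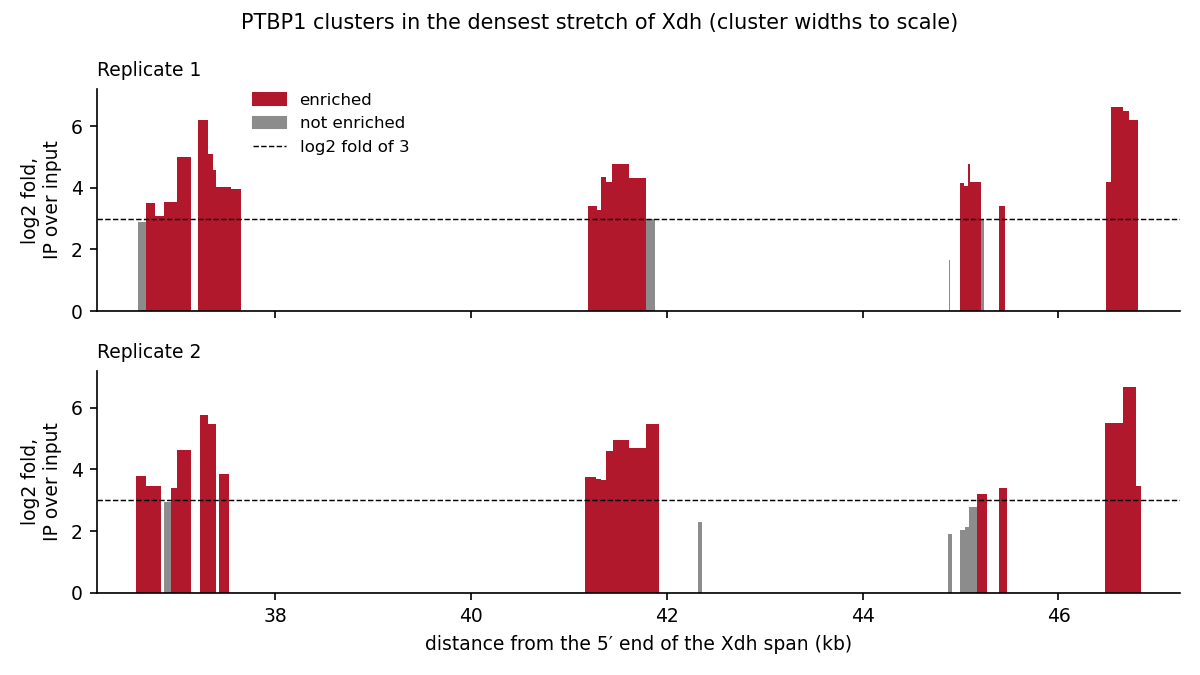
The densest stretch of Xdh, with cluster widths to scale, in replicate 1 (top) and replicate 2 (bottom). The x axis is the distance from the 5′ end in kb, the y axis the log2 fold of immunoprecipitate over input, red bars are enriched and the dashed line marks a log2 fold of 3. The blocks that start at 36.6, 41.2 and 46.5 kb have similar heights in the replicates, and the one that starts at 44.9 kb is lower in replicate 2.

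Upstream of this stretch, binding was weaker and the replicates differed more. It held 36 clusters in replicate 1, of which 4 were enriched, and 39 in replicate 2, of which 3 were. The median log2 fold there was 2.29 and 1.89. The only block upstream with a cluster enriched in both lysates at an overlapping position lay 32.1 to 33.3 kb from the 5′ end (chr17:73917133-73918302). There, replicate 2 had 1 cluster of 304 nt with a log2 fold of 5.13 and a −log10 p of 11.9, while replicate 1 divided the same RNA into several clusters with log2 folds between 2.82 and 3.50. The mean over shared nucleotides of this block was 2.64 in replicate 1 and 4.15 in replicate 2.

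Single enriched clusters were found in 3 further blocks. At 12.4 to 13.4 kb from the 5′ end both replicates had 1, but at different positions: log2 fold 3.43 at chr17:73937514-73937685 in replicate 1 and 3.65 at chr17:73936951-73937026 in replicate 2. At 24.4 to 25.6 kb only replicate 1 had one, with a log2 fold of 3.36 and a −log10 p of 11.3, and the replicate 2 cluster sharing 136 nt with it had 2.39 and 7.72. Near the 5′ end, at 2.18 to 2.89 kb, only replicate 2 had one, with 3.87 and 4.28, and the replicate 1 cluster sharing 78 nt with it had a log2 fold of 3.17 but a −log10 p of 2.24. In the latter cases the cluster of the other replicate was also above input and missed 1 of the thresholds.

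The 3′ end of the gene carried no PTBP1 cluster at all. Downstream of the densest stretch there were 5 clusters in replicate 1 and 6 in replicate 2, of which 0 were enriched, with a highest log2 fold of 1.74 and 2.84. The clusters reached down to position 73896034 in replicate 1 and 73896020 in replicate 2, which left 12125 nt, or 18.2% of the span, without a cluster in either. Over all genes, 16.6% of the clusters of replicate 1 and 16.4% of those of replicate 2 lay in the same last part of the span. Among the 2148 genes with 35 to 140 clusters in each replicate, 32 (1.49%), Xdh included, had no cluster there in either replicate. At the 5′ end 2176 nt were without a cluster, and 0 clusters lay within 5 kb beyond either end. Exons, introns and untranslated regions were not used here, so whether the empty part is exon or intron is not stated.

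With the span divided into 10 parts of equal length from the 5′ end, enriched clusters numbered 0, 1, 0, 1, 2, 9, 12, 3, 0 and 0 in replicate 1. In replicate 2 they numbered 1, 0, 1, 0, 1, 7, 9, 3, 0 and 0. Parts 6 to 8 thus held most of them in each lysate. The median fold was highest in part 8 of replicate 1, at 6.21 over 5 clusters, and in part 7 of replicate 2, at 3.52 over 14. Clusters of any fold were spread more evenly, with 10 and 11 in part 4, where 1 and 0 were enriched.

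Both lysates had clusters at largely the same places in Xdh, while the folds of single clusters varied. An overlapping cluster in the other replicate was present for 64 of 70 clusters in replicate 1 (91.4%) and 57 of 70 in replicate 2 (81.4%), where 56.0% and 54.4% of all clusters had one. An enriched cluster was called reproducible when it shared at least 1 nt with an enriched cluster of the other replicate. By this rule 22 Xdh clusters of replicate 1 and 20 of replicate 2 were reproducible, where 3.98% and 3.72% of all clusters were. That is 78.6% and 90.9% of the enriched Xdh clusters. Over all clusters, 14958 of the 23757 enriched ones of replicate 1 were reproducible, and 14452 of the 18330 of replicate 2. Because Xdh was chosen by its folds, nothing is read from the distance between these shares. Nucleotide by nucleotide, 67.9% of the 7180 nt covered in either replicate were covered in both, and 1793 nt were enriched in both, which is 67.6% of the enriched nucleotides of replicate 1 and 71.5% of those of replicate 2.

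With each replicate 1 cluster set against the replicate 2 cluster that shared most nucleotides, the log2 folds of 64 pairs differed by a median of −0.24 (replicate 1 minus replicate 2) with a standard deviation of 1.08. Replicate 1 was higher in 28 pairs and replicate 2 in 36, and 43 pairs lay within 1 log2 unit. The standard deviation over such pairs of all genes was 1.01. Across the Xdh pairs Pearson's r was 0.774 and Spearman's rho 0.725, given as a description because several pairs share a cluster and all come from the same 2 lysates. Over the 16 blocks with nucleotides covered in both replicates, Pearson's r of the mean folds was 0.858 and Spearman's rho 0.741, and 12 blocks differed by at most 1 log2 unit. The other 4 were the blocks starting at 32.1, 34.0, 44.9 and 51.6 kb, and replicate 2 was the higher one in all of them but the block at 44.9 kb.

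**Figure D3:**
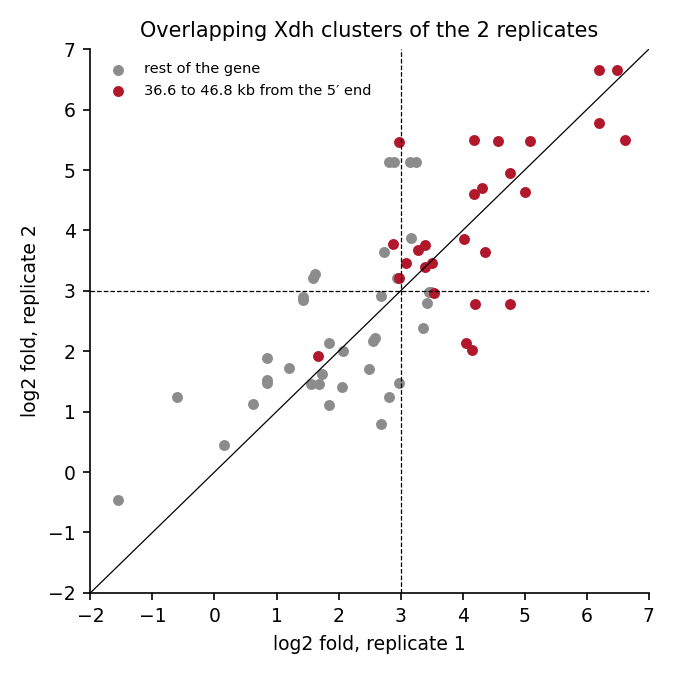
Log2 fold of each replicate 1 cluster of Xdh (x axis) and of the replicate 2 cluster that shares most nucleotides with it (y axis), 64 pairs, with red points from the densest stretch. The solid line marks equal folds and the dashed lines a log2 fold of 3. Most red points lie beyond 3 in both replicates, and points scatter to both sides of the line.

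**Figure D4:**
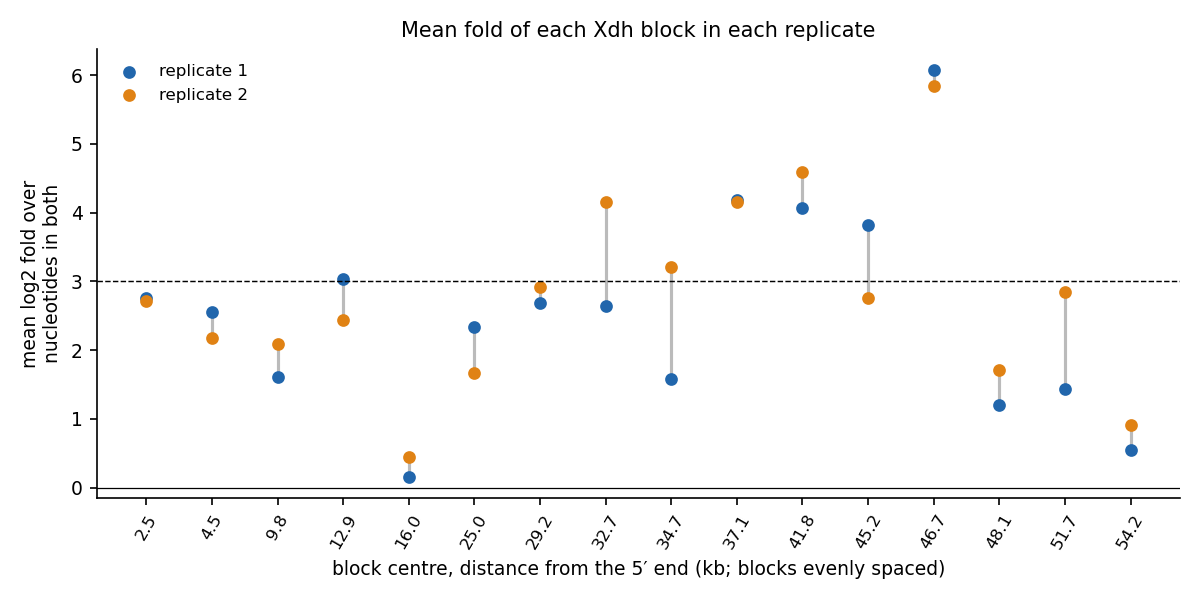
Mean log2 fold of immunoprecipitate over input for the 16 Xdh blocks with nucleotides covered in both replicates, in replicate 1 (blue) and replicate 2 (orange), joined by a grey line. Blocks are in order from the 5′ end (x axis, block centre in kb), and the dashed line marks 3. The block between 46.5 and 46.8 kb is the highest in both replicates.

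Enriched Xdh clusters were somewhat longer than the others of the gene. Their median length was 93.0 nt in replicate 1 and 103 nt in replicate 2, against 68.0 nt and 70.0 nt for those not enriched. Over all genes the median enriched cluster measured 130 nt and 131 nt. Because neighbouring clusters touch, the enriched clusters of Xdh joined into 9 regions in replicate 1 and 11 in replicate 2, covering 2651 and 2509 nt. Clusters of any fold covered 8.41% of the span in replicate 1 and 9.73% in replicate 2.

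A few clusters lay close to the threshold. The lowest log2 fold among enriched clusters was 3.09 in replicate 1 and 3.22 in replicate 2, and the highest just below it, with a −log10 p of at least 3, was 2.98 and 2.96. A −log10 p of at least 3 with a log2 fold under 3 was found for 10 and 9 clusters, and the reverse for 4 in each replicate. The 70 folds took 61 different values in replicate 1 and 64 in replicate 2. How many reads each cluster rests on is unknown, and so is the error of a single fold.

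Set beside other genes, the strongest site of Xdh was near the top of the tables, which restates the rule by which the gene was chosen. By its highest cluster alone, Xdh ranked 101 in replicate 1 and 9 in replicate 2 among the 13373 genes with clusters in both replicates. The strongest pair of Xdh, with 6.62 and 6.66, had the second highest lower-of-2 log2 fold of all genes with a reproducible cluster, after Sox5, the gene of a transcription factor, at 7.05 and 6.97. Frmd4b (7.24 and 6.59) and Unkl (6.55 and 6.60) came next, and the lower folds of all 4 genes differed by less than 1.01, the standard deviation between paired clusters. The rank rests on a pair of Xdh clusters that share 1 nt: where clusters had to share at least 10 nt, the lower fold of Xdh was 6.49 and its rank 7 among 3360 genes, below Sox5, Frmd4b and Unkl among others. These genes differed in the share of their clusters that was enriched, which was 12.2% and 9.19% in Sox5, 14.8% and 16.2% in Frmd4b and 15% and 28.6% in Unkl, against 40% and 31.4% in Xdh. In Sox5 the enriched clusters were 65 of 532 and 52 of 566, so a longer gene held more of them at a lower density.

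Among the 2148 genes with 35 to 140 clusters per replicate, the median log2 fold of Xdh ranked 3 in replicate 1 and 10 in replicate 2. The median of these genes was 0.62 in both. Both ranks come from the folds by which Xdh was chosen, so nothing is read from them. The genes most like Xdh, by distance over the median and 90th percentile of the log2 folds in both replicates, were Abca8a, Ccdc80, Tbx20, Plod2 and Lamp2. Abca8a, an ABC transporter gene, had gene medians of 2.67 and 2.62, and 39.3% and 37.7% of its clusters were enriched. Tbx20, a transcription factor gene of the heart, had medians of 2.50 and 2.55, and 36.8% and 33.8% were enriched.

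The other genes of that group were close behind. Ccdc80, the gene of a secreted matrix-associated protein, had medians of 2.86 and 2.15. The medians were 2.68 and 1.84 in Plod2, a lysyl hydroxylase gene of collagen, and 2.45 and 2.17 in Lamp2, a gene of the lysosomal membrane. Each of the 5 had its own strongest pair at a lower-of-2 log2 fold between 5.05 (Abca8a) and 5.63 (Tbx20). That of Xdh was 6.62, or 6.49 where the clusters had to share at least 10 nt. Because Xdh was chosen for its strongest site, nothing is read from its higher value. The likeness rests on 2 lysates and 4 summary values per gene, and nothing about shared function or control was examined.

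**Figure D5:**
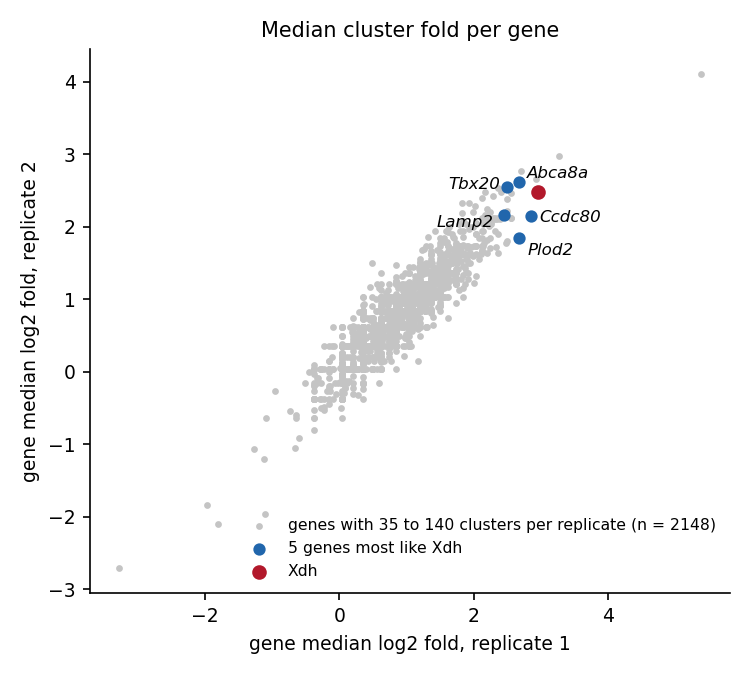
Median log2 fold of the clusters of each gene in replicate 1 (x axis) and replicate 2 (y axis), for 2148 genes with 35 to 140 clusters in each replicate (grey), the 5 genes most like Xdh (blue) and Xdh (red). Xdh lies at 2.96 and 2.47, at the upper end of the cloud, with the bulk of genes around 0.62.

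Genes of purine metabolism and of related pathways had enriched clusters about as often as all genes. Of 63 genes matched in lists of purine breakdown and salvage, purine synthesis, molybdenum cofactor and enzymes, urate transport, and superoxide and peroxide handling, 49 had clusters in both replicates. A reproducible cluster was present in 9 of the 49 (18.4%), where 25.2% of all genes with clusters in both replicates had one. Among the 2148 genes with a cluster number like that of Xdh it was 68.6%, so this share differed with cluster number. No list was matched to all genes in cluster number, so nothing is read from the distance of its share to 25.2%. Of the clusters of the 49 genes, 82 of 1223 (6.70%) were enriched in replicate 1 and 55 of 1275 (4.31%) in replicate 2. These shares were near the 6.34% and 4.72% of all genes. The median of the gene medians was 0.36 and 0.03, beside 0.36 and 0.20 over all genes. No gene median of these lists was above that of Xdh in either replicate. By share of clusters enriched, Sod3, an extracellular superoxide dismutase gene, had 3 of 7 (42.9%) in replicate 1 and 0 of 10 in replicate 2, and Hprt had 6 of 26 (23.1%) and 6 of 20 (30%).

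In purine breakdown and salvage, 5 of 15 genes (33.3%) had a reproducible cluster, beside 25.2% of all genes. Of the clusters of this list, 7.76% and 4.83% were enriched, near the 6.34% and 4.72% of all genes. Nt5c2, whose enzyme dephosphorylates IMP and GMP, had the strongest pair, with log2 folds of 5.62 and 5.23, and 11 of 63 and 6 of 64 clusters were enriched. Gda, the gene of guanine deaminase, which makes xanthine from guanine, had 4.06 and 4.36. Hprt, whose enzyme salvages hypoxanthine and guanine, had 4.60 and 3.71 and the highest gene medians of the list, 2.19 and 2.11. The strongest pair of Adk, the adenosine kinase gene, had 6.14 in replicate 1 and 3.79 in replicate 2, and that of the nucleotidase gene Nt5c3 had 3.99 and 3.20. Pnp, whose enzyme supplies hypoxanthine and guanine, had 7 and 6 clusters, none of them enriched, and a highest log2 fold of 1.68 and 1.94.

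Among genes of the molybdenum cofactor and its enzymes, 1 of 8 (12.5%) had a reproducible cluster, beside 25.2% of all genes. Gphn, the gene of gephyrin, which inserts molybdenum into the cofactor, had 24 of 264 and 19 of 267 enriched clusters, with log2 folds of 5.28 and 4.09 in the strongest pair. Mocos, whose enzyme adds the sulfur that xanthine dehydrogenase needs, had 1 of 16 enriched in replicate 1 and 0 of 14 in replicate 2. The aldehyde oxidase gene Aox1, a relative of Xdh, had 1 of 39 and 0 of 42, with gene medians of 0.36 and −0.07. Aox3, another aldehyde oxidase gene, had 0 of 12 and 0 of 17, with gene medians of 0.04 and 0.03. Both oxidase genes thus lay near the level of all genes.

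The other lists held 1 gene with a reproducible cluster each. That was 7.69% of purine synthesis, 33.3% of urate transport and 10% of superoxide and peroxide handling genes, beside 25.2% of all genes. In purine synthesis it was Gmps, the GMP synthase gene, at 3.87 and 4.12, of 13 genes. In urate transport it was Abcg2, the gene of a urate exporter, at 4.80 and 4.63, of 3 genes. In superoxide and peroxide handling it was Nox4, an NADPH oxidase gene, at 3.94 and 3.87, of 10 genes.

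Endothelial markers, the genes of the cells in which the heart enzyme is known, were split in their folds. Of 16 such genes with clusters in both replicates, 9 had a reproducible cluster (56.2%), where 25.2% of all genes had one. Among the 2148 genes with a cluster number like that of Xdh, 68.6% had one. The marker lists were not matched to all genes in cluster number, so nothing is read from the distance of their shares to 25.2%. Of the clusters of the 16 endothelial genes, 12.3% in replicate 1 and 10.9% in replicate 2 were enriched. Over the clusters of all genes it was 6.34% and 4.72%. The highest enriched share of any endothelial gene was 23.1% in replicate 1 and 20.2% in replicate 2, and the median of their gene medians was 0.96 and 1.03. Gene medians were above 0 in both replicates for 12 of them and below 0 in both for 4, Fabp4 (−3.44 and −2.95), Gpihbp1 (−1.09 and −0.66), Aqp1 (−1.08 and −0.75) and Egfl7 (−1.04 and −0.92), and the highest were those of Vwf, at 1.94 and 1.99, below Xdh. All 9 cardiomyocyte markers had clusters in both replicates, with a median of −2.56 and −2.45, and 3 had a reproducible cluster. A reproducible cluster was found in 5 of 8 fibroblast markers, 5 of 6 pericyte and smooth muscle markers, 3 of 6 macrophage markers and 0 of 2 adipocyte markers, beside the same 25.2% of all genes. The share of clusters enriched was 7.17% and 5.03% for cardiomyocyte, 17.3% and 11.1% for fibroblast and 22.4% and 18.8% for pericyte and smooth muscle markers. For macrophage markers it was 7.65% and 6.47%, and for adipocyte markers 0 in both replicates. The medians of these lists were 1.10 and 1.07 for fibroblast, 2.14 and 1.75 for pericyte and smooth muscle, 0.70 and 0.26 for macrophage and 1.03 and −0.08 for adipocyte markers. Among the 8 fibroblast markers, gene medians were above 0 in both replicates for 5. They were below 0 in both for 2, Tcf21 (−2.18 and −1.38) and Gsn (−1.37 and −1.32). Among the 6 pericyte and smooth muscle markers, 5 were above 0 in both and 1 below, Acta2 (−1.27 and −1.63). The highest gene medians of these lists were those of the fibroblast marker Vim (4.74 and 4.14) and the pericyte and smooth muscle marker Notch3 (3.26 and 2.84). Vim had 80% and 62.5% of its 5 and 8 clusters enriched, and Notch3 57.1% and 40.5%. Both genes were above Xdh in both measures and both replicates. A fold over input in whole heart does not tell which cell type the bound RNA came from, and fewer cells of a type cannot be told apart from less RNA per cell.

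The genomic neighbours of Xdh had enriched clusters at about the rate of all clusters, 9 of 156 (5.77%) in replicate 1 and 10 of 174 (5.75%) in replicate 2, beside 6.31% and 4.71%. Within 500 kb of its span lay 14 other genes, of which 8 had clusters in both replicates and 3 had any enriched cluster. The nearest protein-coding genes had almost no clusters: Ehd3 had 2 in each replicate with a highest log2 fold of −0.38 and 0.20, and Srd5a2 had 0 and 1. Memo1, with 85 and 96 clusters, had medians of 0.84 and 0.79, with 6 and 9 enriched. Spast had 2 of 35 and 0 of 32 enriched, and Slc30a6 1 of 7 in both. Capn13, Gm31235, Dpy30 and Nlrc4 had clusters in both replicates but none enriched, Galnt14 had 2 clusters in replicate 1 alone, and the lncRNA genes Gm46602, Gm30983 and Gm52299 had none. The strand of the lncRNA gene Gm52320 was not resolved, so no clusters were assigned to it.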

How the data were processed

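PTBP1 eCLIP was analysed from 2 cluster tables, 1 for each replicate. Tools listed in the submitters' processing notes are STAR 2.6.0c, cutadapt 2.7 and UMI-tools 0.5.1, and the builds are mm10 and hg38, all without a role. How clusters were called, folds scaled and p-values computed is not given in the sources used here. Every cluster comes with a deposited log2 fold and a deposited −log10 p-value, per the file headers. The −log10 p stops at 400 and is 0 for every fold below 0. Read counts were not used here, which leaves the depth unknown and the folds without intervals.

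Touching clusters share a boundary value (27452 and 28009 cases), so starts were read as counting from 0 and printed counting from 1. Gene spans were those of 34627 protein-coding and lncRNA genes of RefSeq, GRCm38.p6. Strand came from RefSeq promoters for 27025 genes and, for 2535 others including Xdh, from at least 3 clusters in that gene alone with at least 90% on 1 strand. Where both were available, they were the same for 9871 of 9927 genes. Of all clusters, 96.9% in both replicates fell in exactly 1 gene. The tables had 196 clusters of identical coordinates, 0 of them with an identical fold, and 0 in Xdh.

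Genes named were Xdh, members of the pathway lists with a reproducible cluster (up to 10) with Pnp, Gda, Gphn, Mocos, Aox1 and Aox3, genes within 500 kb, the 5 most alike, and those ranked next to Xdh. Sod3 and the single cell type markers fall outside this rule and were named for their values. The members and lists were chosen with earlier results of these data known. Code was tested on simulated clusters and run with Python 3.11.15, pandas 2.3.3, NumPy 2.4.6 and SciPy 1.17.1.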

Additional observations from a re-analysis of the deposited data

How the results depend on the processing

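With a stricter threshold (log2 fold at least 4, −log10 p at least 5), 17 Xdh clusters of replicate 1 (24.3%) and 10 of replicate 2 (14.3%) were enriched, in 5 joined regions each, 12 and 9 were reproducible, and 4 pathway genes had a reproducible cluster. With a looser log2 fold of at least 1, the enriched shares were 54.3% and 44.3%, and the regions of replicate 1 numbered 15. Fewer or more clusters pass by the construction of these thresholds. The shares over all clusters and all genes at these other thresholds are not given here, so the counts have no background beside them. The strongest pair had a lower log2 fold of 6.49 when the clusters had to share at least 10 nt or at least 50 percent of the shorter one, and its rank among genes, 2 otherwise, was then 7 under both rules (ranks added after seeing the data). Among clusters with an overlapping cluster in the other replicate, the median fold of replicate 2 was 2.96. The pair's fold was 6.62 to 6.66 when either replicate was left out, enriched clusters numbered 22 to 28, their share was 31.4% to 40%, the median fold 2.47 to 2.96 and the joined regions 9 to 11. Taking any overlap with the span, or widening the span by 5 kb (chosen after seeing the data), changed 0 of 11 values each. Ranking genes by their enriched shares instead kept 3 of the 5 genes most like Xdh. The number of blocks depends on the joining distance, 28 at 300 nt and 17 at 1000 nt against 21. No paired analysis was possible because each deposited fold already sets an immunoprecipitate against the input of its own lysate, and no test was made. Reproducible counts need both replicates and have no value with either left out.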
